A study of Rattus norvegicus with 18 samples.

Results

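The cytosolic ribosomal proteins are the protein parts of the ribosome outside mitochondria. They were taken here as every probe set whose single gene symbol on the array is Rpl or Rps followed by a number, with an optional letter, or is Rplp0, Rplp1, Rplp2 or Rpsa. The S6 kinase genes, whose symbols begin with Rps6k, were left out. The rule found 47 probe sets for 42 genes, of 10411 genes named by a single-gene probe set, and 29 of the 42 encode large-subunit and 13 small-subunit proteins. No probe set carried Rplp1, Rplp2, Rps27a, Rpl10l or Rpl39l as its only symbol, and 32 probe sets that name a ribosomal protein together with another gene fell outside the rule. A filter on dim probe sets kept 42 of the 47 probe sets and 39 of the 42 genes (27 large-subunit and 12 small-subunit), with 1 probe set per gene, the brightest on average, standing for it. Counts from the fits that follow are over these 39.

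The samples came from F344BN rats aged 6, 18 or 30 months, and the labels name no treatment. Each of the 18 Affymetrix RA230 arrays held total RNA pooled from 4 animals, with 3 arrays for each of the 6 groups formed by age and tissue, the oculomotor nucleus or the spinal cord. The labels do not say whether replicate pools came from separate animals, so p-values measure the spread between these pools. In bulk RNA, fewer cells of a type and less RNA per cell cannot be told apart.

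Ribosomal proteins assemble with ribosomal RNA in the nucleolus into a small subunit, which decodes the mRNA, and a large subunit, which joins the amino acids. Their mRNAs are among the most abundant of any cell. Most begin with a cytosine and a run of pyrimidines, the 5′ terminal oligopyrimidine (TOP) tract, through which the mTOR pathway controls their translation together. Neurons use many ribosomes to maintain long axons and synapses, and large motor neurons are rich in them.

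The mRNA start is the sequence feature the class is known for, so start-site windows are shown for the 8 genes that differed between the tissues and for 4 genes with large differences between replicate arrays. RefSeq promoter entries of the GRCr8 build were matched for 37 of the 42 genes, Rpl3l and Rps27l, which the filter dropped, among them. Each window below runs 5′ to 3′ over 30 bases, 15 before the annotated start and 15 from it on, and capitals mark its longest unbroken run of C and T.
Rpl22: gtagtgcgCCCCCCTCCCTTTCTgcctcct
Rpl12: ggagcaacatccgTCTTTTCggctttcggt
Rplp0: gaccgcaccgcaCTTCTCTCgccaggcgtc
Rpl37a: gcatgcccgttgcgTCTCTTCCTCTTCggg
Rps15a: cggcgTTTTCTTTCCacagtcaccatggtg
Rpl39: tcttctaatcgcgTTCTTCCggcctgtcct
Rpl35a: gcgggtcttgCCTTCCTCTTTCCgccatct
Rpl6: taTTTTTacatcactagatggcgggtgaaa
Rpl13a: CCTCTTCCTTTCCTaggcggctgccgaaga
Rpl21: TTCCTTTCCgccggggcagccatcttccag
Rpl5: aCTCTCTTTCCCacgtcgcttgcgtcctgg
Rpl24: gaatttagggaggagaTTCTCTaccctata

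These windows lie on the plus strand for Rpl22 (chr5:168117946-168117975), Rpl12 (chr3:36661925-36661954) and Rpl37a (chr9:81748076-81748105). They lie on the minus strand for Rplp0 (chr12:46718376-46718405), Rps15a (chr1:181860270-181860299), Rpl39 (chrX:121195882-121195911), Rpl35a (chr11:81235007-81235036) and Rpl6 (chr12:41011676-41011705). The other 4 are also on the minus strand: Rpl13a (chr1:104748899-104748928), Rpl21 (chr12:13386139-13386168), Rpl5 (chr14:1995211-1995240) and Rpl24 (chr11:58128391-58128420). A run of at least 8 C or T within such a window was found for 22 of the 37 genes (59.5%) and for 11.4% of all 33469 promoter entries. A C at the annotated start followed by at least 4 more pyrimidines, the classical TOP form, was found for 11 of 37 (29.7%) against 2.63% of all entries. Rpl22, Rplp0, Rpl35a, Rpl37a and Rpl39 are among these 11. In several others, such as Rpl13a and Rpl21, the run lay upstream of the annotated start.

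In the 300 bases of each entry, 250 before the start and 50 from it on, the letters ATGGCGG, known as a YY1-type motif, were found on either strand for 11 of 37 genes (29.7%) and for 4.8% of all entries. The letters CCGGAAG, an ETS-type motif, were found for 8 of 37 (21.6%) and for 8.75% of all entries. Neither motif contains the other, and a match describes letters only.

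Before the results, 4 arrays need naming, because an earlier principal component analysis of these data set them apart from their group mates: oculomotor nucleus 30 months replicate 3, spinal cord 6 months replicate 1, spinal cord 18 months replicate 3 and spinal cord 30 months replicate 3. With each group centred on its mean, they scored from 12.1 to 16.6 on the first component of all 9482 probe sets kept, and the other 14 arrays scored from -14.2 to 1.7. The 5 motor neuron markers summed to signals of 1132 to 1516 on oculomotor arrays and 3148 to 4151 on cord arrays, and the 4 of them kept by the filter were higher in the cord. Midbrain dopamine neuron markers, which include tyrosine hydroxylase (Th), summed to 6761 to 8174 in the oculomotor arrays, and all 4 kept were lower in the cord. The summed signal of 9 skeletal muscle markers ranged from 1226 to 11580 on the 6-month cord arrays, from 1264 to 4946 on the 18-month cord arrays and from 771.1 to 1524 on oculomotor arrays.

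Ribosomal protein mRNAs were bright on all arrays. The median signal of the 39 genes was between 3743 and 5334 on each array, on a scale where the 2% trimmed mean of an array was 500.083 to 500.101. Among the conserved core proteins, Rps6, the small-subunit substrate of S6 kinase, varied least. Its oculomotor signals were 7158, 7467 and 7220 for 6 months, 7167, 7316 and 7758 for 18 months and 7582, 7485 and 8429 for 30 months. In the cord they were 7614, 7259 and 8799, then 7433, 7801 and 8499, then 6972, 7130 and 8455. The groups overlapped except between 6 and 30 months in the oculomotor nucleus, where the change was 0.10 (SE 0.10, log2) and did not pass the test, with an adjusted p of 0.828. Rpl3, which lies near the site of peptide bond formation, ranged from 6750 to 10520 on oculomotor arrays and from 6403 to 9392 on cord arrays. Rpsa, also known as the laminin receptor precursor, ranged from 2788 to 4442 and from 3710 to 4900.

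The paralogs Rpl3l and Rps27l and the probe set for Rpl30 were dim. Rpl3l, a striated muscle paralog of Rpl3, read 3.9 to 40.3 on all arrays, including the 6-month cord array with the most muscle transcript, where it read its highest value. Rps27l, a p53-inducible paralog of Rps27, read 48.3 to 123.6. The probe set for Rpl30 read 9.3 to 133.2. None of the 3 passed the filter, so no difference was tested for them.

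The first question the design poses is whether these mRNAs change with age. No ribosomal protein gene passed the test at an adjusted p under 0.05 in any of the 6 comparisons between ages, 18 with 6, 30 with 6 and 30 with 18 months in each tissue (limma, Benjamini-Hochberg adjustment over 9482 probe sets). Few probe sets passed at all. The shares in that order were 0%, 0.211% and 0.0105% for the oculomotor nucleus, and for the cord 0.728%, 0.221% and 0.0105%. At an unadjusted p under 0.05, limma gave 0 ribosomal protein genes in each oculomotor comparison, against 3.39%, 8.12% and 4.71% of all probe sets. In the cord it gave 3, 2 and 0 of 39, against 10.3%, 10.7% and 2.14%.

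The estimates were small as well as not called. For 18 with 6 months in the oculomotor nucleus, the 95% confidence interval of all 39 genes lay within a 1.5-fold change either way, against 85.0% of all probe sets. For 30 with 6 months and 30 with 18 months there it did so for 37 and 36 genes, against 79.6% and 82.2%. In the cord it did so for 35, 34 and 35 genes, against 78.0%, 77.8% and 86.8%. The intervals rest on 1 spread per gene, shared by all 6 groups, and the spread was not equal between groups. The oculomotor SD of the signal was 52.3 at 6 months and 1560 at 30 months for Rpl13a. For Rpl3 it was 264 and 1910, and for Rpl39, which went the other way, 48.4 and 38.7. A group that spread more than the shared value is given intervals that are too narrow. The plot of changes between ages shows the intervals gene by gene.

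**Figure D1:**
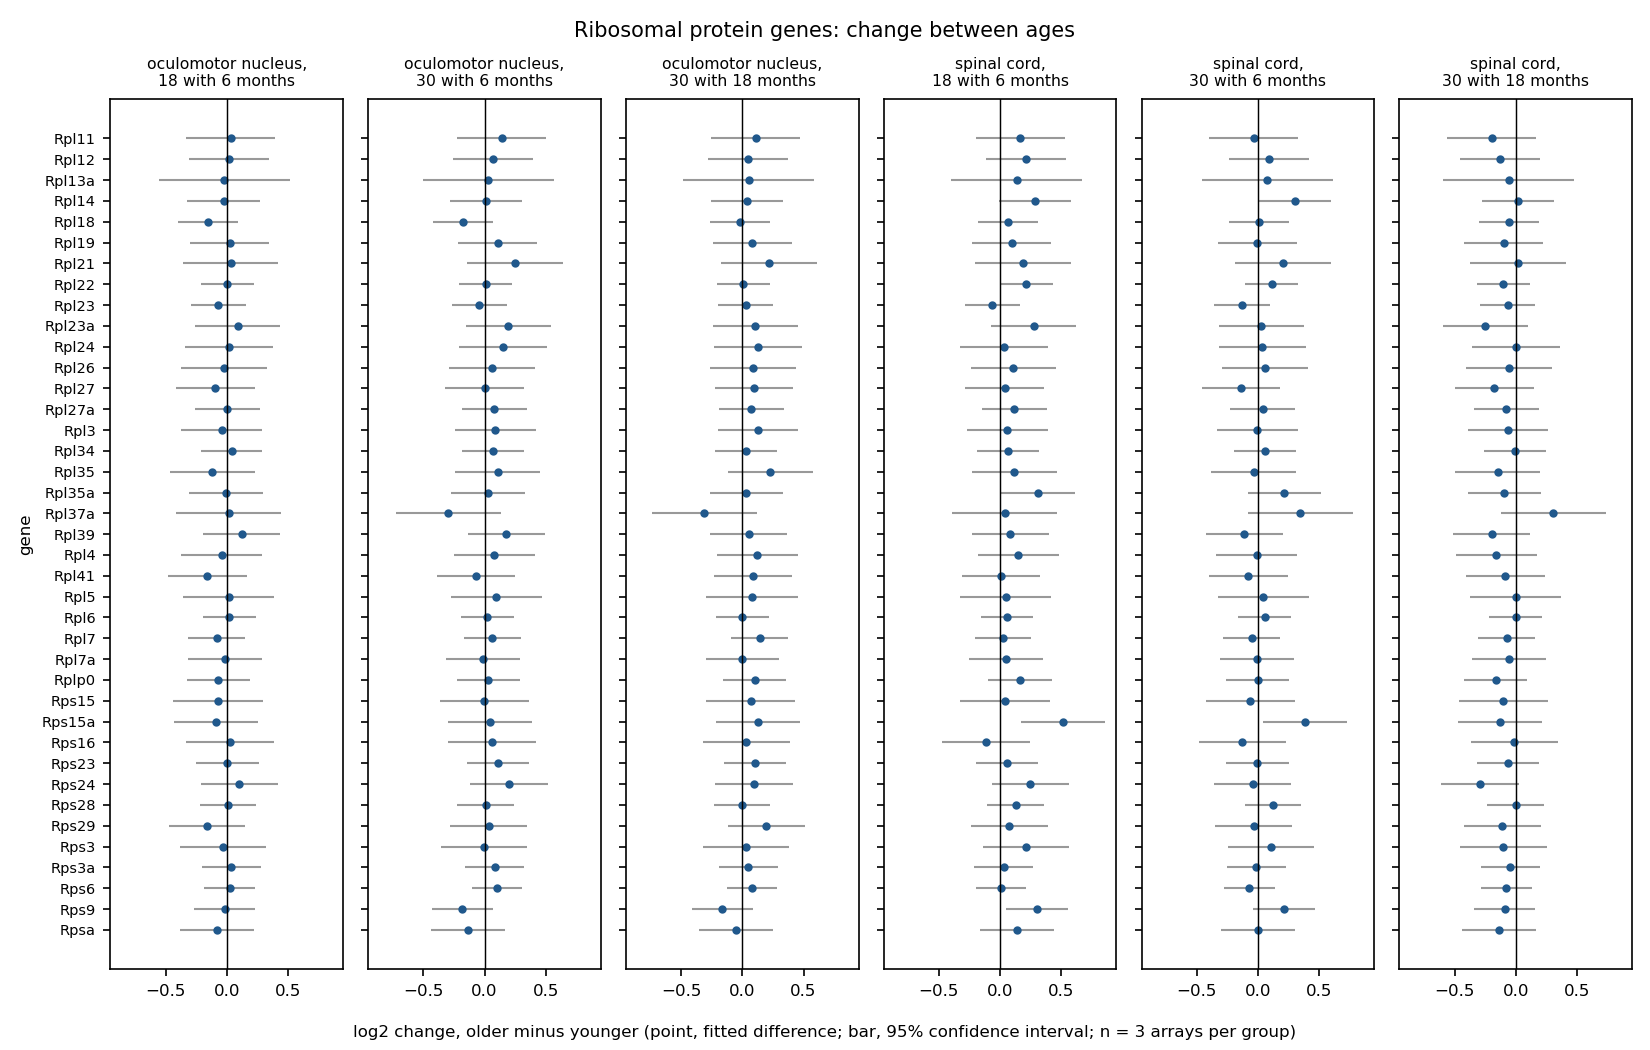
Change in log2 signal between ages (x axis, older minus younger) for each of the 39 genes (y axis), in 6 panels by tissue and pair of ages. Points are fitted differences of groups of 3 arrays. Bars are 95% confidence intervals from 1 fit of all 18 arrays, with a spread shared by the groups. Nearly all points lie close to 0, Rps15a in the cord at 18 months reaches 0.51, and Rpl37a has wide intervals.

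In the oculomotor nucleus the median log2 change of the 39 genes was -0.006 for 18 with 6 months, 0.059 for 30 with 6 months and 0.074 for 30 with 18 months, with positive estimates for 19, 30 and 34 genes. Over all probe sets the medians were -0.003, 0.001 and 0.004. The 5 genes with the smallest p for 18 with 6 months were Rpl18 at -0.15, Rps29 at -0.16, Rpl41 at -0.16, Rpl39 at 0.12 and Rpl7 at -0.08, each with an adjusted p of 1. Rpl41 encodes one of the smallest known eukaryotic proteins. For 30 with 6 months they were Rps9 at -0.18, Rpl18 at -0.17, Rpl37a at -0.30, Rpl21 at 0.25 and Rps24 at 0.20, with adjusted p from 0.734 to 0.771. For 30 with 18 months they were Rpl37a at -0.31, Rpl35 at 0.23, Rps9 at -0.16, Rps29 at 0.20 and Rpl7 at 0.14, each with an adjusted p of 0.976.

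Array ranges did not overlap between 6 and 18 months for 4 genes in the oculomotor nucleus, all lower at 18 months (Rpl18, Rpl41, Rpl35 and Rpl23), against 14.5% of all probe sets. Between 6 and 30 months this held for Rps6 alone (13.9% of all), and between 18 and 30 months for 0 genes (8.81% of all).

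In the spinal cord, estimates from 6 to 18 months were positive for 37 of 39 genes, with a median of 0.093 against -0.002 over all probe sets. From 6 to 30 months they were positive for 19 genes, with a median of -0.003. From 18 to 30 months they were positive for 4 genes, with a median of -0.078. The 3 comparisons share arrays, so the first and the last are not separate observations. The median over the 39 genes varied between replicate arrays with a pooled SD of 0.163 (log2), more than any of these medians. All 8 genes whose array ranges did not overlap between 6 and 18 months were higher at 18 months (Rps15a, Rps9, Rpl35a, Rpl22, Rpl14, Rpl12, Rps3 and Rps28), against 13.6% of all probe sets. Between 6 and 30 months and between 18 and 30 months there were 0 such genes, against 13.1% and 6.46%.

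Rps15a, a small-subunit protein that binds 18S ribosomal RNA, had the largest age estimate. Its cord signals were 4546, 3343 and 3731 for 6 months, 4957, 5113 and 6488 for 18 months and 4487, 4375 and 6375 for 30 months. Every 18-month array was above every 6-month array, while the 30-month range overlapped both. The change from 6 to 18 months was 0.51 (SE 0.16; 1.43-fold), with an adjusted p of 0.208, and that from 6 to 30 months was 0.38 (SE 0.16), with an adjusted p of 0.4. Among the arrays that stand apart are replicate 1 at 6 months and replicate 3 at 18 and 30 months, and on each Rps15a read highest of its group. Without the 4 arrays the change from 6 to 18 months was again 0.51, with an adjusted p of 0.033. With these arrays as a block in the fit the adjusted p was 0.00465 for 18 with 6 months and 0.0475 for 30 with 6 months, and after quantile normalization it was 0.0184 and 0.108. Rps15a was the gene called in each of these alternatives, and no other ribosomal protein gene was. The 4 arrays were set apart on these same values, members included. The adjusted p with the block or without the 4 arrays are therefore descriptions, not separate tests.

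Rps9, a small-subunit protein near the mRNA entry, read 3238, 3578 and 4182 on the cord arrays of 6 months, 4339, 4832 and 4326 on those of 18 months and 3865, 3852 and 5049 on those of 30 months. Its change from 6 to 18 months was 0.30 (SE 0.12), with an adjusted p of 0.364. Its change from 6 to 30 months was 0.21, with an adjusted p of 0.572, and was -0.004 without the 4 arrays that stand apart. Rpl35a, a large-subunit protein mutated in some patients with Diamond-Blackfan anaemia, read 2442, 3077 and 2812, then 3406, 3330 and 3546, then 2909, 3061 and 3708. Its change from 6 to 18 months was 0.31 (SE 0.14), with an adjusted p of 0.468. Rpl22 at 0.21 and Rpl14 at 0.28 had adjusted p of 0.492 and 0.503. From 6 to 30 months, Rpl14 at 0.30, Rpl37a at 0.35 and Rpl35a at 0.22 also had small p, with adjusted p of 0.457, 0.588 and 0.645. From 18 to 30 months, the smallest p were those of Rps24 at -0.29, Rpl37a at 0.31, Rpl23a at -0.25, Rplp0 at -0.16 and Rpl39 at -0.20, each with an adjusted p of 1.

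Microglia markers had positive median estimates for 18 with 6 and 30 with 6 months in both tissues. From 6 to 18 months in the cord, all 11 kept by the filter had positive estimates and 4 passed the test, with a median of 0.63, and the summed signal of all 13 listed was 12940 to 14310 at 6 months and 19100 to 21540 at 18 months. From 6 to 30 months in the cord all 11 were again positive, with a median of 0.505, where the ribosomal protein median was -0.003. In the oculomotor nucleus the microglia medians were 0.305 for 18 with 6 months and 0.448 for 30 with 6 months. The ribosomal protein medians there were -0.006 and 0.059. The part that cell composition played in the ribosomal protein values was not tested.

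Whether the age change differed between the tissues was tested as the cord change minus the oculomotor change. For neither 18 with 6 nor 30 with 6 months was a ribosomal protein gene called, nor any other probe set (0% of all in both). At an unadjusted p under 0.05 limma gave 1 and 2 ribosomal protein genes, against 5.07% and 5.47% of all probe sets. The smallest p for 18 with 6 months was that of Rps15a, with a difference of 0.60 (SE 0.23) and an adjusted p of 0.911. Rps9, Rpl35a, Rpl14 and Rpl22 followed at 0.32, 0.32, 0.31 and 0.21, each with an adjusted p of 0.983. For 30 with 6 months, Rps9 at 0.39 and Rpl37a at 0.64 had an adjusted p of 0.907, Rps15a at 0.34 and Rpl14 at 0.29 of 0.92, and Rpl39 at -0.29 of 0.923. The intervals were wide here: 18 and 23 of the 39 lay within a 1.5-fold difference, against 50.5% and 50.2% of all.

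The second comparison set the spinal cord against the oculomotor nucleus. As a mean over the 3 ages, 8 of 39 ribosomal protein genes differed (20.5%), against 47.2% of all probe sets tested. Rpl22, Rpl12 and Rplp0 were higher in the cord, and Rpl37a, Rps15a, Rpl39, Rpl35a and Rpl6 were lower. The changes were modest, from 1.11-fold to 1.41-fold, and the median difference of the 39 genes was 0.055 against -0.011 over all probe sets. After quantile normalization 15 genes were called, 10 higher and 5 lower, against 48.0% of all probe sets, and with median centring 2 higher and 5 lower, against 47.8%. Markers of other cells also differed between the tissues: all 11 microglia, 8 meninges and 4 skeletal muscle markers kept by the filter were higher in the cord, with medians of 0.66, 1.72 and 1.16. With the skeletal muscle markers as a covariate, 2 ribosomal protein genes were called higher and 2 lower, against 31.9% of all probe sets. No fit was run with the microglia or meninges markers, and their part in the ribosomal protein differences was not tested.

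**Figure D2:**
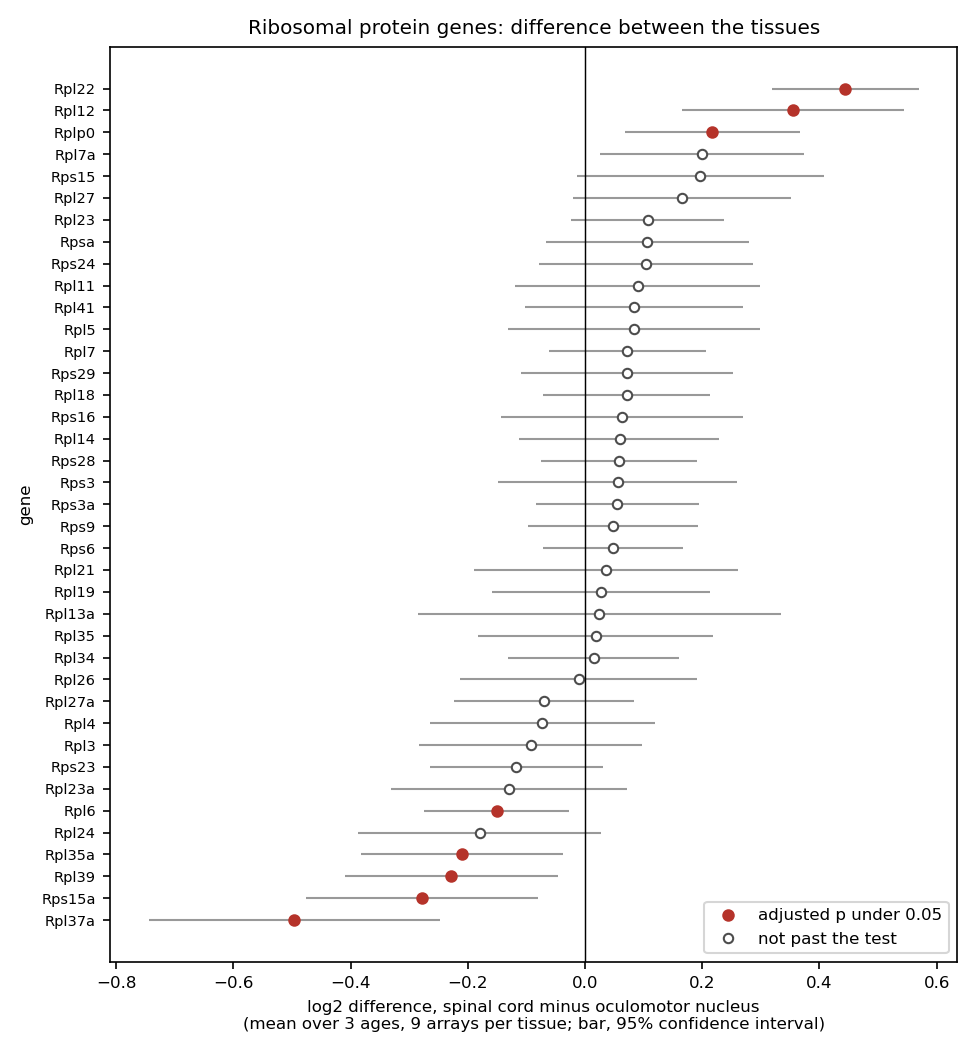
Difference in log2 signal between spinal cord and oculomotor nucleus (x axis, cord minus oculomotor nucleus, mean over 3 ages, 9 arrays per tissue) for each of the 39 genes (y axis). Bars are 95% confidence intervals and filled points passed the test. Rpl22 at 0.44 and Rpl37a at -0.50 are the extremes, and most genes lie near 0.

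Rpl22, a large-subunit protein that also binds RNA outside the ribosome, showed the clearest difference. Its oculomotor signals were 2287, 2106 and 2064 for 6 months, 2076, 2093 and 2304 for 18 months and 2444, 1834 and 2269 for 30 months. Its cord signals were 2717, 2834 and 2620, then 3210, 3044 and 3215, then 2763, 2780 and 3316. Every cord array was above every oculomotor array, and no other of the 39 genes separated the 9 arrays of each tissue in this way, which 14.2% of all probe sets did. The difference was 0.44 (SE 0.06; 1.36-fold), with an adjusted p of 5.05e-06. It passed the test at each age, at 0.34, 0.55 and 0.44 for 6, 18 and 30 months, with adjusted p of 0.0198, 0.000517 and 0.00432. At 6 months it was not called without oculomotor replicate 2 or 3 or cord replicate 2 (adjusted p of 0.0632 to 0.0754), with median centring (0.0694) or with skeletal muscle markers as a covariate (0.194). The mean over ages was called in all 31 alternatives run on it, at 0.40 to 0.47.

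Rpl12 and Rplp0 belong to the stalk of the large subunit, which recruits the elongation factors: Rplp0 is its scaffold and Rpl12 lies at its base. Rpl12 had a lowest, median and highest signal of 1917, 2569 and 3287 on oculomotor arrays and 2762, 3369 and 4115 on cord arrays. The ranges overlapped over all ages, though neither at 6 nor at 18 months. Its difference was 0.36 (SE 0.09; 1.28-fold), with an adjusted p of 0.00309, and it was called in all 31 alternatives. Rplp0 read 2500, 2921 and 3407 on oculomotor arrays and 2863, 3481 and 3904 on cord arrays. Its difference was 0.22 (SE 0.07; 1.16-fold), with an adjusted p of 0.017. It was not called with median centring (adjusted p = 0.0537) or with skeletal muscle markers as a covariate (0.319). The other stalk proteins, Rplp1 and Rplp2, had no single-gene probe set here.

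Rpl37a, a small zinc-binding protein of the large subunit, was the gene with the largest decrease in the cord. Its oculomotor signals were 9534, 9979 and 9645 for 6 months, 9255, 10080 and 10150 for 18 months and 9625, 9348 and 5507 for 30 months. Its cord signals were 4948, 8604 and 4838, then 6585, 5830 and 5820, then 8263, 8526 and 6021. Of the oculomotor arrays, 8 lay within a narrow range and replicate 3 at 30 months stood far below, while the cord arrays at 6 and 30 months each split into high and low values. The difference was -0.50 (SE 0.12; 1.41-fold lower), with an adjusted p of 0.00188, and it was called in all 31 alternatives at -0.62 to -0.40. The value at 6 months was -0.72 and that at 18 months -0.70, with adjusted p of 0.0139 and 0.0162. At 6 months it was not called without cord replicate 1 or 3 (adjusted p of 0.0648 to 0.0729), and at 18 months not without oculomotor replicate 2 or 3 or cord replicate 2 (0.0505 to 0.0524). Without the filter the adjusted p at the 2 ages were 0.0543 and 0.0618. At 30 months it was -0.07, with an adjusted p of 0.844. Whether the tissue difference itself changed between 6 and 30 months was tested above and did not pass (0.64, adjusted p = 0.907).

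The skeletal muscle markers summed to 5945, 11580 and 1226 on the 6-month cord arrays, in replicate order, where Rpl37a read 4948, 8604 and 4838. On the 18-month cord arrays they summed to 1264, 4946 and 1921, where Rpl37a read 6585, 5830 and 5820. On the 30-month cord arrays the sums were 1302, 1524 and 1377, with Rpl37a at 8263, 8526 and 6021. With those markers as a covariate the Rpl37a difference over ages was -0.62, with an adjusted p of 0.0104. In the cord, the number of probe sets with a signal of 10000 or more was 40, 13 and 48 at 6 months. At 18 months it was 15, 19 and 47, and at 30 months 13, 12 and 42. It was 56 on oculomotor replicate 3 at 30 months. On the other 8 oculomotor arrays it ran from 15 to 36. The part of signal compression or probe saturation in the Rpl37a values was not tested.

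**Figure D3:**
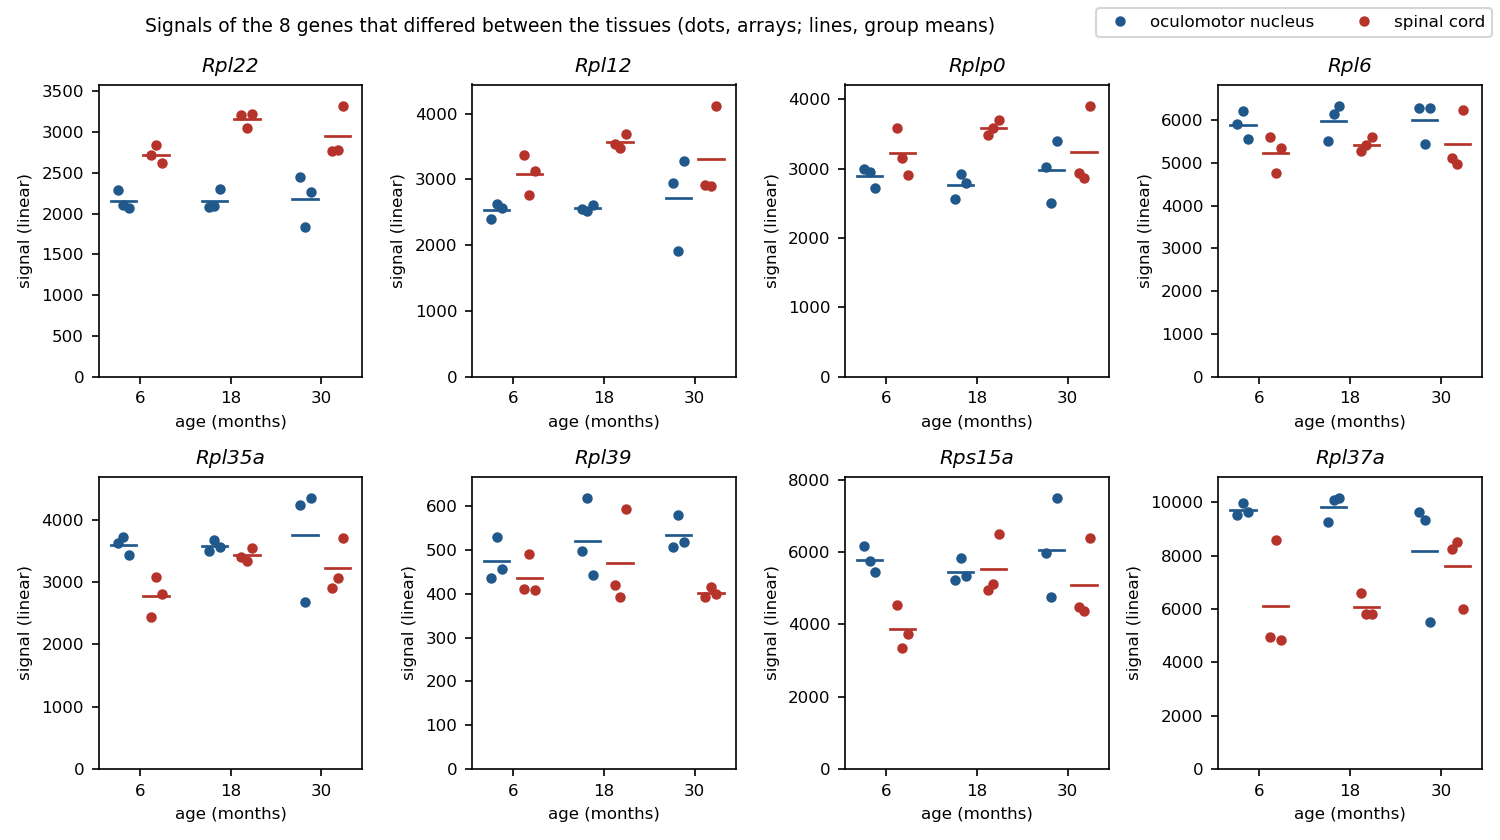
Signal (y axis, linear, from 0) at 6, 18 and 30 months (x axis) for the 8 genes that differed between the tissues. Dots are arrays and lines are means of 3 arrays, blue for the oculomotor nucleus and red for the spinal cord. The colours separate fully only for Rpl22, and Rpl37a shows the low oculomotor array at 5507.

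The remaining decreases were smaller. Rps15a read 4741, 5741 and 7479 (lowest, median, highest) on oculomotor arrays and 3343, 4546 and 6488 on cord arrays. Its difference was -0.28 (SE 0.09), with an adjusted p of 0.0207. The difference was -0.59 at 6 months, with an adjusted p of 0.0119, and 0.01 at 18 months, with an adjusted p of 0.979, and the test of that change is the interaction given above. It was not called without the filter (adjusted p = 0.0594) or with muscle markers as a covariate (0.145). Rpl39, a small protein at the peptide exit tunnel, read 436.7, 506.7 and 617.8 on oculomotor arrays and 391.7, 410.4 and 593.3 on cord arrays, a difference of -0.23 (SE 0.09) with an adjusted p of 0.0375. Rpl35a differed by -0.21 (SE 0.08), with an adjusted p of 0.043, and Rpl6, another large-subunit protein, by -0.15 (SE 0.06), with an adjusted p of 0.0419. Over the 31 alternatives these last 3 kept their direction and were called in 20, 13 and 18. Leaving out any of 9 arrays ended the call of Rpl39, of 13 arrays that of Rpl35a and of 11 arrays that of Rpl6, with adjusted p up to 0.0938.

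At single ages fewer genes passed. At 6 months 3 of 39 were called (Rpl22 higher, Rps15a and Rpl37a lower) against 26.1% of all probe sets. At 18 months 4 were called (Rpl22, Rpl12 and Rplp0 higher, Rpl37a lower) against 26.2%. Rpl12 at 18 months was not called without any 1 of the 6 arrays of that age (adjusted p of 0.0558 to 0.0752), nor Rplp0 without any of them but oculomotor replicate 2 (0.0503 to 0.106). Both calls were also lost with median centring (0.0651 for Rpl12 and 0.0692 for Rplp0), without the filter (0.0773 and 0.0551) and with muscle markers as a covariate (0.0714 and 0.156). Rps15a at 6 months was not called without cord replicate 2 (0.0599) or with the muscle covariate (0.122). At 30 months Rpl22 alone was called, against 21.0%. After quantile normalization the calls at 6 and 18 months were 2 higher with 3 lower, and 8 higher with 1 lower. With median centring they were 0 higher with 2 lower, and 1 higher with 1 lower. Array ranges did not overlap between the tissues for 9, 14 and 2 genes at 6, 18 and 30 months, against 40.7%, 44.9% and 33.5% of all probe sets.

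Where a gene had several probe sets, the calls rested on the brightest. Rpl7 had 2 that disagreed at 6 months. The bright one differed by 0.07 between cord and oculomotor nucleus, and the dim one, with signals of 157.2 to 258.2, by -0.48 with an adjusted p of 0.0365. Rpsa had 3, with differences over ages of 0.11, -0.08 and 0.09, none called.

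Without the 4 arrays that stand apart, 11 genes differed between the tissues over ages, 3 higher and 8 lower, against 47.2% of all probe sets in that fit. Rpl22, Rpl12 and Rplp0 were again the genes higher in the cord, at 0.42, 0.32 and 0.17 with adjusted p of 6.27e-05, 0.00297 and 0.0235, and Rpl37a was lower at -0.48 (adjusted p = 0.000685). Rpl23a, Rpl24, Rpl3 and Rps23 joined the lower genes, and Rpl35a was no longer called (adjusted p = 0.0733). With these arrays as a block, 14 genes differed, 3 higher and 11 lower, against 50.9%. The arrays were set apart on these same values, so both fits are descriptions.

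Replicate arrays differed in a way that most of these genes shared. The residual SD of the log2 signal had a median of 0.207 over the 39 genes, 0.176 over all probe sets and 0.14 over the 445 other probe sets in the brightest 5%. It ran from 0.106 for Rps6 to 0.378 for Rpl13a, a protein also known for repressing translation of inflammatory mRNAs. After centring each group, the first principal component of the 39 genes held 74% of their variance, with 38 loadings of one sign and Rpl37a of the other. Over all probe sets the first component held 27.1%.

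On the 4 arrays that stand apart, the 39 genes lay above their group mates. The median difference from the mean of the other 2 arrays was 0.35 on oculomotor replicate 3 at 30 months, 0.15 on cord replicate 1 at 6 months, 0.26 on cord replicate 3 at 18 months and 0.40 on cord replicate 3 at 30 months. The genes higher than their mates numbered 37, 28, 36 and 37 of 39. On all 4 arrays together 28 of 39 genes (71.8%) were higher, against 16.7% of all probe sets. At the other end, oculomotor replicate 2 at 30 months lay 0.29 below its group mean by the median, with 2 of 39 genes above it. These arrays were set apart on all probe sets, which include the members, so the counts are a description.

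**Figure D4:**
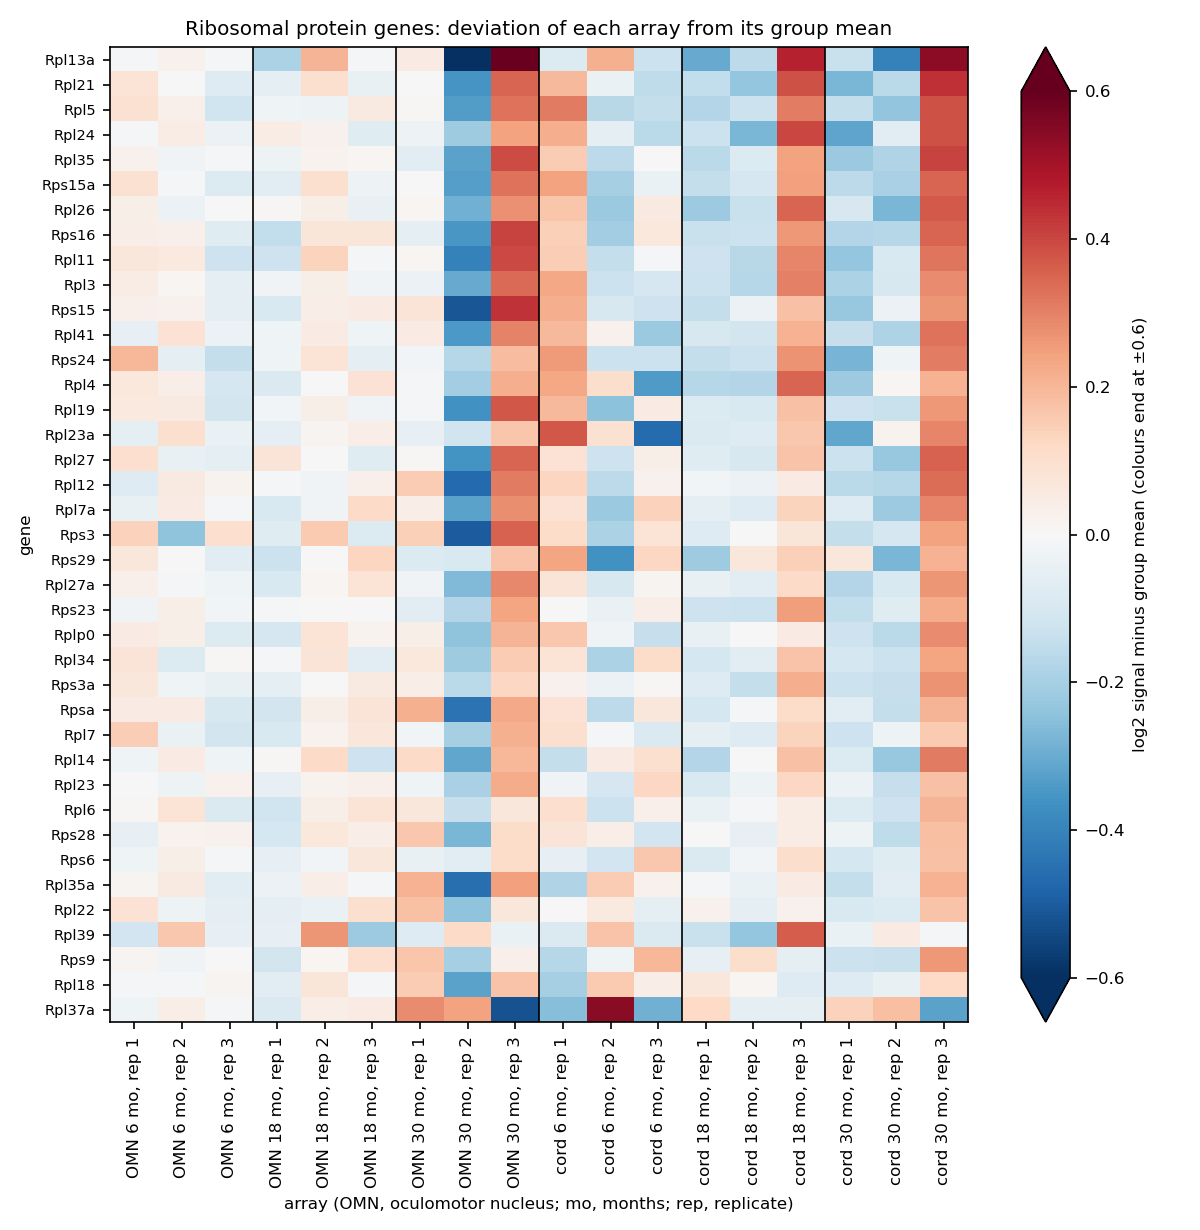
Deviation of each array from its group mean in log2 signal (colour, red above and blue below, with colours ending at 0.6 either way) for the 39 genes (rows) on the 18 arrays (columns, in groups of 3). Rows are ordered by the mean difference on the 4 arrays that stand apart, which appear as red columns, next to the blue column of oculomotor replicate 2 at 30 months. The last row, Rpl37a, runs the opposite way.

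Members differed in how far they moved with these arrays. Rpl21 was 0.53, 0.29, 0.57 and 0.66 above its mates, in the order given above, Rpl5, which binds 5S ribosomal RNA, 0.49, 0.47, 0.46 and 0.57, and Rpl24 0.36, 0.33, 0.60 and 0.57. Rpl13a was 0.89, 0.69 and 0.81 above on the 3 later arrays and 0.12 below (a difference of -0.12) on cord replicate 1 at 6 months. Rpl22 moved little, at 0.10, -0.004, 0.04 and 0.26. Rpl37a was the single gene below its mates on all 4, at -0.78, -0.38, -0.09 and -0.48.

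Large-subunit and small-subunit genes moved alike in size, with medians of 0.37, 0.15, 0.26 and 0.43 for the 27 and 0.31, 0.15, 0.24 and 0.38 for the 12. The 32 probe sets that name a ribosomal protein with another gene had medians of 0.37, 0.18, 0.23 and 0.44. The 18 other mRNAs known to carry a TOP tract, such as those of elongation factors, had 0.26, 0.27, 0.18 and 0.22. Mitochondrial ribosomal proteins, which serve a separate ribosome, had 0.01, 0.07, -0.005 and 0.06 over 70 genes. The brightest other probe sets, 445 in number, had 0.18, 0.07, 0.14 and 0.15, and all probe sets -0.009, -0.001, -0.007 and -0.010.

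**Figure D5:**
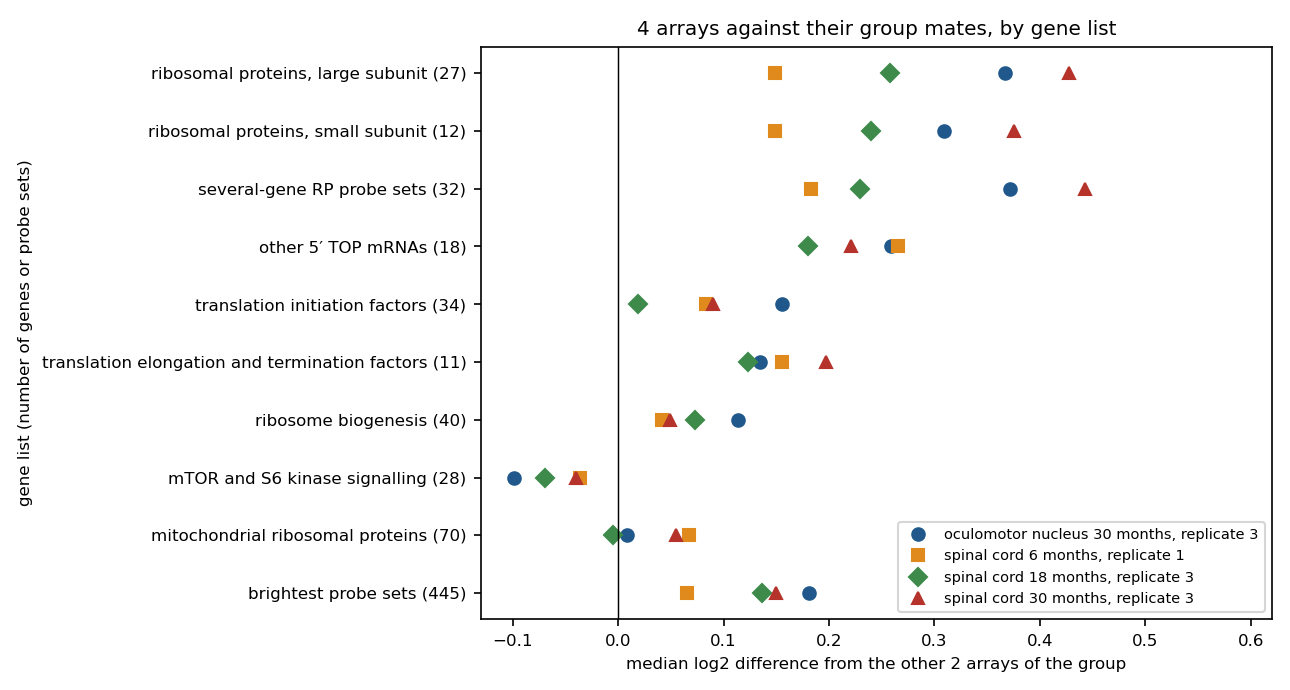
Median log2 difference between each of the 4 arrays that stand apart and the mean of the other 2 arrays of its group (x axis), by gene list (y axis, number of genes or probe sets in brackets). The ribosomal protein lists lie at 0.15 to 0.44, mitochondrial ribosomal proteins near 0, and mTOR signalling genes slightly below 0.

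Other measures moved with these arrays. They held 40 to 56 probe sets with a signal of 10000 or more, while the other 14 arrays held 12 to 48. The median oligodendrocyte marker lay above its group mates on all 4, with differences of 0.10, 0.08, 0.31 and 0.38. Of the 6 markers 4, 4, 6 and 6 were higher. The 2 blood markers had medians of 0.34, 0.45, 0.91 and 0.31, and the 7 astrocyte markers 0.26, 0.04, 0.22 and 0.27. The 4 midbrain dopamine neuron markers had 0.09, 0.19, 0.15 and 0.085. No other cell type list had medians above 0 on all 4, and the 3 endothelium markers had medians below 0 on each. The ratio of the 3′ to the 5′ actin probe set, a sign of RNA quality, was the highest of its group on each of the 4, at 1.54, 1.26, 1.27 and 1.4, and ran from 0.98 to 1.49 on the other 14 arrays. The same ratio for hexokinase and for GAPDH did not mark all 4 arrays. On cord replicate 1 at 6 months neither was the highest of its group. On cord replicate 3 at 30 months the hexokinase ratio was the highest and the GAPDH ratio was not. On the remaining arrays of the 4 both were the highest. The signal of the 5S ribosomal RNA control was the highest of its group on 3 of the 4 arrays, at 275.3, 198.4 and 254.1, and the lowest on cord replicate 1 at 6 months, at 84.5. After quantile normalization, which equalizes the distribution of signals, the members' median deviation from the group mean was 0.13 on oculomotor replicate 3 at 30 months in place of 0.24, and 0.13 on cord replicate 3 at 30 months in place of 0.27. The part of signal distribution, RNA quality or cell composition in the pattern was not tested.

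The genes that build and drive ribosomes were followed as lists. In the 6 comparisons between ages, none of the 34 initiation factors, 11 elongation and termination factors, 40 ribosome biogenesis genes, 28 mTOR and S6 kinase pathway genes or 70 mitochondrial ribosomal protein genes kept by the filter passed the test. Between the tissues over ages, 6 initiation factors were higher in the cord and 4 lower, against 47.2% of all probe sets. Eif3l, a subunit of the eIF3 complex, was higher by 0.40 (adjusted p = 0.000127), and Eif4e, the cap-binding protein, was lower by a difference of -0.24 (adjusted p = 0.000291). Eif1b was higher by 0.34 (adjusted p = 0.000467).

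Of the 11 genes listed as elongation and termination factors, 3 were higher and 3 lower, against 47.2% of all probe sets. Eef1e1, an elongation factor by symbol only but counted in this list, differed by -0.42 (adjusted p = 2.12e-06). Eef1a2, the form of elongation factor 1A found in neurons and muscle, differed by -0.44 (adjusted p = 3.24e-05), and Eef1d by 0.50 (adjusted p = 6.07e-05). Of the 40 biogenesis genes 5 were higher and 5 lower, against the same 47.2%. They were led by Gnl3l at -0.43, the nucleolar protein Nolc1 at -0.37 and the exosome subunit Exosc7 at -0.33.

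Of the 28 genes in the mTOR list 4 were higher and 5 lower, against 47.2% of all probe sets. The same share stands beside the lists that follow. Rraga, a GTPase that signals amino acids to mTOR, differed by -0.27, Pdpk1 by -0.28 and Lamtor4 by 0.24, with adjusted p of 0.000555, 0.00275 and 0.00398. Of the 70 mitochondrial ribosomal protein genes 4 were higher and 10 lower, led by Mrps25 at -0.28, Mrpl45 at 0.36 and Mrpl20 at -0.34. Of the 18 other TOP mRNAs 2 were higher and 2 lower. Eef1d and Eif3l were the higher ones, and Eef1b2 at -0.29 was among the lower. These genes are also counted in the factor lists above. Of the 32 several-gene probe sets, 4 were higher and 0 lower. Rack1, a scaffold protein bound to the small subunit, read 2703 to 3890, with a difference of 0.04 (SE 0.07) and an adjusted p of 0.655.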

How the data were processed

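Per the series' design text, the authors pooled tissue from 4 animals per sample and processed the arrays with Affymetrix Microarray Suite 5.0 (MAS5 in the submitters' processing notes). The deposited table holds 1 linear intensity per probe set and array for 15923 probe sets, 57 of them controls, without detection calls; the 2% trimmed mean was 500.083 to 500.101 on each array. Intensities were scaled to a common trimmed mean, raised to a floor of 66.4 (pooled 20th percentile) and log2-transformed. Probe sets with a mean log2 signal over 7.459 (pooled 40th percentile) were kept (9482). Levels are scaled signals, and differences are on the log2 scale. One model of 6 group means was fitted with limma 3.58.1 in R 4.3.3 (moderated, with trend; 12 residual and 18.8 total degrees of freedom), 2-sided, with Benjamini-Hochberg adjustment over all 9482 and calls at 0.05. Arrays were simulated for 30 with 6 months in the cord (9482 probe sets), with 200 changed probe sets drawn from all kept. Of these, 92 of 100 changes of 2-fold and 47 of 100 of 1.5-fold were called, and 4 unchanged probe sets were. Noise was drawn independently for each probe set, whereas replicate values of the 39 genes moved together. Their median residual SD was also larger (0.207 against 0.176), so the rates do not give the share that would be called among these genes.

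Members and gene lists were chosen with earlier results of these data known. Named genes are members past the test, up to 10 each way, or the 5 smallest p where fewer than 5 passed, plus Rplp0, Rpsa, Rps6, Rpl3, the paralogs, genes whose probe sets disagree, and up to 3 genes per pathway list. No 2 arrays were identical; their number limits the precision. Deviations of same-numbered arrays from their group means correlated over 0.1 for every number in 1 comparison, the tissues at 30 months (0.121, 0.235 and 0.501). This likeness comes from the values, not the labels, and the 0.501 is between arrays that both stand apart. The series' text speaks of 4 replicates per group and the labels give 3, which were used. Protein sequences were not used here.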

Additional observations from a re-analysis of the deposited data

How the results depend on the processing

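Each count and median was recomputed under other scalings, floors, filters, variance models, covariates and probe set choices, and without each array in turn. No median log2 change of the ribosomal protein genes moved by more than 0.163, the SD between replicate arrays. That SD is larger than every median between ages, and leaving out 1 array could change their sign. For 18 with 6 months the median ran from -0.026 to 0.024 in the oculomotor nucleus and from -0.005 to 0.174 in the cord. For 30 with 6 months it ran from -0.073 to 0.183 and from -0.127 to 0.095. For 30 with 18 months it ran from -0.05 to 0.22 and from -0.206 to -0.009, and only the last kept its sign. Without single arrays the count called between ages stayed 0, and between tissues it was 5 to 10 for the mean over ages (8 with every array). For 6 months the range was 2 to 4 (3), for 18 months 1 to 4 (4), and for 30 months 1 to 2 (1). The count over ages was 5 without oculomotor replicate 2 at 6 months, oculomotor replicate 2 at 18 months, cord replicates 1 or 2 at 18 months or cord replicate 1 at 30 months.

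Quantile normalization gave 1 for 18 with 6 months in the cord. Between tissues it gave 15, 5, 9 and 2 (over ages, then 6, 18 and 30 months), against 48%, 26.6%, 27.3% and 21.8% of all probe sets. Median centring gave 2 at 18 months, against 26.3%. Without the filter the counts were 5 over ages and 1 at 18 months, against 32.5% and 17.1%. With array weights the count was 2 at 30 months, against 20.4%. The 4 arrays that stand apart were set apart on these same values. Blocking on them, the counts were 1 each for 18 with 6 and 30 with 6 months in the cord. Between tissues the counts were 14, 6 and 4 over ages, at 6 and at 30 months, against 50.9%, 31.5% and 26.4%. Leaving out these 4 arrays, an alternative chosen after seeing the data, gave 1 for 18 with 6 months in the cord. Between tissues at 30 months it gave 2, against 17.2%. With muscle markers as a covariate the counts were 4, 1 and 2 over ages, at 6 and at 18 months, against 31.9%, 12.5% and 20.2%. In the main fit the shares of all probe sets were 47.2%, 26.1% and 26.2%. The rule of the study's design text, every pairwise ratio one way and a change over 1.70, gave 0 at 6, 18 and 30 months, against 6.8%, 7.71% and 5.86% of all probe sets. The cause was not tested.

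Only for 18 with 6 months in the oculomotor nucleus did every array correlate best with its own replicate number, and weakly, at 0.081, 0.048 and 0.041. Between the tissues at 30 months this held for replicates 2 and 3 and not for replicate 1. The highest correlations were 0.501 there and 0.450 for 30 with 18 months in the cord. Both are between replicate 3 arrays that stand apart. With the replicate block, 9 genes differed over ages and 3, 4 and 1 at 6, 18 and 30 months, against 47.1%, 26.1%, 26.6% and 21.4% of all probe sets. Between ages 0 genes differed, and the gene called between tissues at 30 months was again Rpl22. Among named genes, 2 estimates that were not called changed sign: Rpl39 for 18 with 6 months in the oculomotor nucleus ran from -0.008 (without oculomotor replicate 2 at 18 months) to 0.232 over the left-out arrays, and Rps9 for 30 with 6 months in the cord was -0.004 without the 4 arrays. Signals lay far above the floor for the 39 genes kept, and the 3 dim genes could not be measured.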
